A study of Mus musculus with 24 samples.

Results

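The comparison of C1qtnf6-KO with WT mice at gd14.5 (gd, gestation day) covers 6 of the 24 bulk RNA-seq libraries of the series, taken by their labelled genotype and stage: 3 from WT and 3 from C1qtnf6-KO. All came from the maternal-fetal interface (MFI), the tissue in which the maternal decidua meets the fetal placenta. WT mice were C57BL/6, and the C1qtnf6-KO mice were homozygous for a deletion of 3 exons of *C1qtnf6*, made with CRISPR-Cas9 in the strain C57BL/6JCya. The morning of the vaginal plug counted as day 0.5, no treatment was given, and the labels name no dam, litter, maternal age or sequencing run. The deletion is carried in the germ line and is not limited to the placenta. Nothing in the labels says that the 3 libraries of a group came from separate pregnancies, so the p-values below measure the spread between these libraries. Replicate 3 of each group held Y-linked transcripts that the others nearly lacked, so it was not a technical repeat of them. The others may be technical repeats of each other, and a shared litter or run remains possible for all. The question was which genes and pathways, beyond the deleted gene, differed with genotype at mid-gestation.

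*C1qtnf6* encodes CTRP6, a secreted glycoprotein of the C1q/TNF-related family. The placenta at this stage is an organ of secretion: trophoblast makes large amounts of prolactin-related hormones, pregnancy-specific glycoproteins and cathepsins, which are folded in the endoplasmic reticulum (ER) by chaperones such as BiP (*Hspa5*), carried to the Golgi in COPII vesicles, and returned, where needed, by COPI vesicles and KDEL receptors. When folding falls behind, the unfolded protein response raises chaperone genes through ATF6, XBP1 and ATF4. The decidua adds maternal natural killer (NK) cells, macrophages and stromal cells, so immune genes are read in the same sample.

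The deleted gene was checked first. *C1qtnf6*, on chromosome 15 from 78523346 to 78531416 of GRCm38 (minus strand), stood at 112, 125 and 132 CPM in the WT libraries and 0.387, 0.421 and 0.470 CPM in the KO libraries, where CPM stands for counts-per-million of the normalized library size. It fell by 8.17 on the log2 scale, with an SE of 0.12 and an adjusted p of 2.54e-10 in edgeR's quasi-likelihood test with Benjamini-Hochberg adjustment. The reads left in KO numbered 12, 16 and 12. Total counts ran from 23520602 to 36378830 in WT and from 26103318 to 37383108 in KO. A count of 3, used as the limit of detection for counting error only, stands for 0.0789 to 0.129 CPM. All 6 pairs of replicates differed beyond counting error, at a chi-square of 9.29 to 21.3 for each degree of freedom. Replicate 3 of each genotype held Y-linked transcripts, at 171 CPM in WT and 174 CPM in KO, while the other 4 libraries held at most 1.41 CPM. Y-linked transcripts therefore did not separate the genotypes, and replicate 3 is the library to watch within each of them. The defining trophoblast marker *Tpbpa* stood at 20992 ± 880.1 CPM in WT and 19887 ± 2236 CPM in KO (mean ± SD, n = 3) and *Prl3b1* at 10321 ± 323 CPM in WT and 9995 ± 1134 CPM in KO. The decidual hormone gene *Prl8a2* stood at 2422 ± 153 CPM in WT and 2425 ± 278 CPM in KO, and the syncytiotrophoblast gene *Syna* at 91.6 ± 7.09 CPM in WT and 74.2 ± 5.77 CPM in KO. *Synb* held at most 3 reads in any library and was not tested. Levels are not given here for the trophoblast marker *Gcm1* and the decidual marker *Pgr*. Without KO replicate 3, *Pgr* was among 11 autosomal genes with an adjusted p under 0.05 in edgeR.

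Few genes passed the limits for differential expression. Of 18024 genes tested, 3 were DEGs (0.0166%) past both limits, an adjusted p under 0.05 and a log2 fold change beyond 1 either way: *C1qtnf6*, which fell, and 2 genes placed on the X chromosome, which rose. *Mid1*, an E3 ubiquitin ligase of microtubules, stood at 1.495, 1.33 and 1.24 CPM in the WT libraries and 4.52, 5.71 and 5.37 CPM in the KO libraries. Its log2 fold change was 1.92 ± 0.15 (SE), with an adjusted p of 0.0022. The antisense transcript *Gm15726* was measured at 0.0272, 0.0851 and 0 CPM in WT and at 1.03, 1.03 and 0.666 CPM in KO. It lies within *Mid1*, on the X chromosome from 169979047 to 169985232 inside 169685199 to 170005736, and as the counting ignored strand, reads of the 2 genes cannot be told apart. Its WT libraries held 1, 3 and 0 reads, so no fold is given. In a fit of all 24 libraries and in one with the replicate number as a block, *C1qtnf6* alone passed (adjusted p with the block 0.0555 for *Mid1* and 0.135 for *Gm15726*), and *Gm15726* was lost on leaving out any library but KO replicate 3. No autosomal gene other than *C1qtnf6* passed in this fit. With edgeR's robust option *Tmem267* passed as well (adjusted p = 0.0376). With a Y-linked covariate 3 autosomal genes had an adjusted p under 0.05, in DESeq2 18 and in limma voom 2. In these 4 fits all of them but *Tmem267* lay below the fold threshold. With no filter on low counts 223 autosomal genes had an adjusted p under 0.05. Some of those lay beyond the fold threshold, such as *Alb* at a log2 fold change of -3.296. Its adjusted p in edgeR was 3.64e-110 in that fit and 0.693 with the filter, although a single WT library carried its level. For 39 of the 74 genes described, leaving out the filter made the result stronger. The calls of that fit are therefore not read as changes. At an unadjusted p under 0.05 were 594 genes higher in KO (3.30% of those tested) and 628 genes lower (3.48%). In 1096 genes (6.08%) the 3 KO libraries lay wholly above the 3 WT libraries, and in 1178 (6.54%) wholly below. Leaving out KO replicate 3 raised the genes at an unadjusted p under 0.05 on the higher side to 935 and the DEGs to 5, and leaving out WT replicate 1 lowered those on the lower side to 329. The shares over all genes are the background against which the gene groups are read. List counts without a share beside them are to be set against 3.30% higher and 3.48% lower at an unadjusted p under 0.05. For groups that did not overlap, the shares to use are 6.08% wholly above and 6.54% wholly below. The median log2 fold change of all genes tested was -0.003, and 49.2% of them had a positive value.

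Among autosomal genes with a mean of at least 1 CPM and groups that did not overlap, the 10 genes with the smallest p in each direction are described next, none of which passed the adjusted threshold. Closest to it was *Tmem267*, which encodes a transmembrane protein. It stood at 9.38, 12.9 and 9.78 CPM in the WT libraries and 4.36, 4.36 and 5.49 CPM in the KO libraries, and the highest KO library lay below the lowest WT library (log2 fold change -1.18 ± 0.15, adjusted p = 0.0631). *Creld2*, an ER protein induced when folding is disturbed, came next, at 167, 178 and 187 CPM in the WT libraries and 106, 101 and 131 CPM in the KO libraries. KO replicate 3 was the highest of the KO libraries and still below all 3 WT libraries (log2 fold change -0.65 ± 0.09, adjusted p = 0.107). The surface glycoprotein gene *Cd83*, a marker of activated dendritic and other antigen-presenting cells, was the leading gene on the higher side. It stood at 51.52, 56.9 and 56.9 CPM in the WT libraries and 85.6, 73.2 and 76.53 CPM in the KO libraries, the lowest KO library well above the highest WT library (log2 fold change 0.51 ± 0.07, adjusted p = 0.107). Without KO replicate 3, which is a library with Y-linked transcripts, all 3 genes passed, at an adjusted p of 0.0125 for *Tmem267*, 0.00159 for *Creld2* and 0.0495 for *Cd83*. Without any other single library none of the 3 passed, and without KO replicate 2 the adjusted p was 0.536 for *Tmem267*, 0.607 for *Creld2* and 0.266 for *Cd83*.

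The other 9 genes on the higher side had log2 fold changes of 0.24 to 0.41. They hold a pair of related kinases: *Rock1* stood at 66.1, 70.7 and 67.54 CPM in the WT libraries and 82.7, 89.2 and 80.96 CPM in the KO libraries, and *Rock2* at 208, 211 and 204 CPM in the WT libraries and 254, 254 and 246 CPM in the KO libraries. Both enzymes phosphorylate myosin light chain phosphatase and so set actomyosin tension. *Trip11*, which encodes the golgin GMAP-210 that tethers vesicles at the Golgi, stood at 56.1, 62.2 and 57.1 CPM in the WT libraries and 71.4, 71.02 and 71.98 CPM in the KO libraries. *Akap9*, a large scaffold of the Golgi and centrosome, stood at 84.50000, 87.4 and 86.1 CPM in the WT libraries and 100.03, 102 and 102 CPM in the KO libraries. *Rb1cc1*, a subunit of the kinase complex that starts autophagy, stood at 105, 108 and 104 CPM in the WT libraries and 125, 128 and 123 CPM in the KO libraries. The remaining genes were *Uvssa*, of transcription-coupled repair (0.41 ± 0.07), *Wdr62*, of the spindle pole (0.34 ± 0.07), the glutathione enzyme *Ggt1* (0.31 ± 0.06) and the silencing factor *Resf1* (0.26 ± 0.05), all as log2 fold change with SE. Their adjusted p lay between 0.452 and 0.477.

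On the lower side, the other 8 genes had log2 fold changes between -0.81 and -0.33. The collagenase gene *Mmp1a* stood at 49.4, 47.2 and 51.7 CPM in the WT libraries and 40.7, 32.8 and 33.1 CPM in the KO libraries. *Zkscan3*, a zinc finger repressor of autophagy genes, stood at 75.9, 73.3 and 58.49 CPM in the WT libraries and 48.6, 51.3 and 42.52 CPM in the KO libraries, and *Ppp1r3g*, which targets a phosphatase to glycogen, at 22.9, 21.1 and 16.8 CPM in the WT libraries and 13.8, 14.2 and 11.6 CPM in the KO libraries. For both genes, replicate 3 was the lowest library of its genotype. *Apoa1*, the main protein of high-density lipoprotein, stood at 5.52, 8.68 and 8.92 CPM in the WT libraries and 4.36, 3.94 and 4.82 CPM in the KO libraries. The others were the calcium-binding protein gene *S100a16* (-0.45 ± 0.09), the antisense transcript *Dlx4os* (-0.66 ± 0.13), the phospholipase-like gene *Plbd1* (-0.37 ± 0.07) and *Gcnt1*, which branches O-glycans (-0.33 ± 0.07). Adjusted p for the 8 genes ran from 0.452 to 0.517. For *Dlx4os* the counting without strand leaves reads of an overlapping gene possible.

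**Figure D1:**
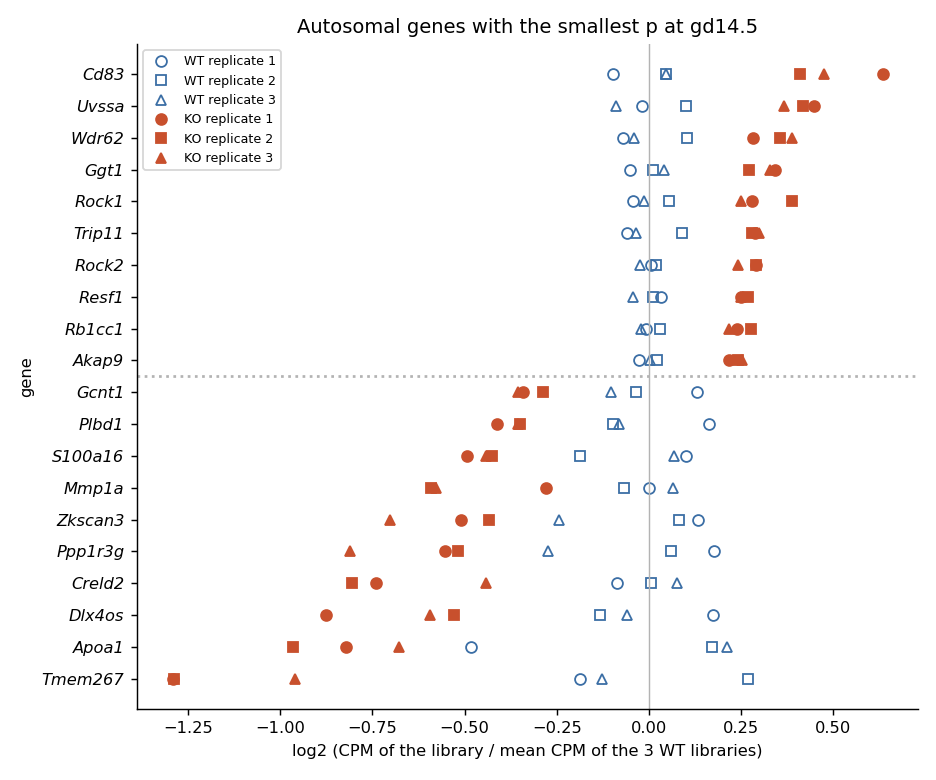
Each row is an autosomal gene, and each point a library as log2 of its CPM over the mean CPM of the 3 WT libraries. Open blue symbols are WT and filled red symbols KO, with the circle, square and triangle for replicates 1, 2 and 3. The genes were chosen for groups that do not overlap, and the fold change is largest for *Tmem267* (log2 fold change -1.18) and *Apoa1* (-0.81) on the lower side and for *Cd83* (0.51) on the higher side.

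The secretory pathway was described with 4 lists. Of 33 ER chaperones and oxidoreductases tested, none had an unadjusted p under 0.05 on the higher side and 3 had one on the lower side, and the median log2 fold change was -0.01. The 3 genes were *Creld2*, *Hsp90b1* and *Pdia4*. *Hsp90b1*, the ER form of HSP90 (GRP94), stood at 2367, 2470 and 2778 CPM in the WT libraries and 2049, 1914 and 2194 CPM in the KO libraries, all KO libraries below all WT libraries (log2 fold change -0.31 ± 0.10, adjusted p = 0.693). *Pdia4*, a disulfide isomerase, stood at 401, 485 and 488 CPM in the WT libraries and 341, 352 and 448 CPM in the KO libraries. KO replicate 3 lay within the WT range, and the log2 fold change was -0.27 ± 0.12. BiP, from *Hspa5*, stood at 2749, 3059 and 3215 CPM in the WT libraries and 2484, 2313 and 3070 CPM in the KO libraries, with KO replicate 3 again within the WT range (log2 fold change -0.20 ± 0.12, adjusted p = 0.791). *Calr*, the calcium-binding chaperone calreticulin, stood at 2509 ± 203 CPM in WT and 2537 ± 294 CPM in KO and its groups overlapped. Summed over the 33 genes, the level was 17596, 19441 and 19841 CPM in WT and 17201, 16716 and 19876 CPM in KO.

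A binding site for the ATF6 and NF-Y factors, the ER stress element, was searched in RefSeq promoter windows of GRCm38.p6, which run from 250 bases before to 50 after the gene start. The search was for CCAAT and CCACG with 9 bases between them, on either strand. It was found in 7 of the 26 chaperone genes with a window (26.9%), namely *Calr*, *Canx*, *Creld2*, *Dnajc3*, *Hsp90b1*, *Hspa5* and *Pdia6*, against 37 of 27025 windows overall (0.137%). The stretches of *Creld2* and *Hsp90b1* are shown because these genes lead the list by p, and those of *Hspa5* and *Calr* because they lead it by level, with the 2 parts of the element in capitals, read 5′ to 3′ along the gene. In *Creld2*, *Calr* and the second *Hsp90b1* stretch the element lies on the opposite strand.
Creld2, chr15:88819515-88819543, plus strand: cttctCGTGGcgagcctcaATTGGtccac
Hsp90b1, chr10:86705633-86705661, minus strand: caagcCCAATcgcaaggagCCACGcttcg
Hsp90b1, chr10:86705528-86705556, minus strand: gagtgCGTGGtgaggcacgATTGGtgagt
Hspa5, chr2:34772020-34772048, plus strand: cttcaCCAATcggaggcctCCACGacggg
Calr, chr8:84847070-84847098, minus strand: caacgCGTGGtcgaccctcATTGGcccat
Of the genes that hold the element, *Creld2* and *Hsp90b1* had unadjusted p under 0.05 on the lower side, and *Hspa5*, *Calr*, *Canx*, *Dnajc3* and *Pdia6* had log2 fold changes of -0.20, 0.02, -0.01, -0.11 and -0.09. Of 23 genes of the unfolded protein response with a window, *Derl3* and *Syvn1* held the element (8.70%), with log2 fold changes of 0.04 and 0.28. A match of letters is a description and not a measured binding site. The interferon element (GAAA and GAAA with 2 bases between) and the cAMP response element TGACGTCA were searched likewise, and are given with the interferon genes.

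The unfolded protein response and ER-associated degradation list (28 genes tested) had a median of 0.05, with 21 genes above 0 and 1 gene at an unadjusted p under 0.05. Wholly above WT lay 4 of them (14.3%, against 6.08% of all genes), and none wholly below. *Herpud1*, a membrane protein that recruits the degradation ligase, stood at 58.54, 67.54 and 60.2 CPM in the WT libraries and 74.2, 78.9 and 130.01 CPM in the KO libraries. KO replicate 3 was far above the other 5 libraries, which did not overlap between genotypes either (log2 fold change 0.60 ± 0.18, adjusted p = 0.648). Without KO replicate 3 the log2 fold change was 0.30. The transcription factor gene *Xbp1* stood at 264 ± 7.84 CPM in WT and 270.1 ± 12.9 CPM in KO. For *Creb3l1* and *Syvn1*, replicate 3 was the highest KO library. Of 35 translocation, signal peptidase and N-glycosylation genes, none had an unadjusted p under 0.05 in either direction, 21 lay above 0, and the median was 0.03. Its leading gene by p, *Tram1*, a translocation protein beside the Sec61 channel, stood at 179.7, 187 and 194 CPM in the WT libraries and 203, 195 and 212 CPM in the KO libraries.

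The vesicle transport list had more genes on the higher side. Of its 50 tested, 42 had a positive log2 fold change, 11 an unadjusted p under 0.05 on the higher side and 1 on the lower side, and 15 lay wholly above WT (30.0%, against 6.08% of all genes) with 1 wholly below. The size of the shift was small, at a median of 0.06. The KDEL receptor gene *Kdelr3* stood at 44.1, 46.54 and 49.4 CPM in the WT libraries and 54.1, 52.9 and 53.9 CPM in the KO libraries (log2 fold change 0.20 ± 0.06, adjusted p = 0.648), and *Tmed5*, a cargo receptor, at 91.2, 97.2 and 98.8 CPM in the WT libraries and 116, 103 and 112 CPM in the KO libraries. *Golgb1*, the tether giantin, stood at 248, 266 and 234 CPM in the WT libraries and 272, 295 and 291 CPM in the KO libraries, and the COPII coat gene *Sec24a* at 62.1, 70.1 and 62.48 CPM in the WT libraries and 69.4, 78.2 and 76.9 CPM in the KO libraries. *Arcn1*, an abundant subunit of the COPI coat, had a log2 fold change of 0.05. The median of log2 CPM over the list, centred on each gene, was -0.083, -0.015 and -0.005 in the WT libraries and 0.024, -0.004 and 0.094 in the KO libraries. KO replicate 2 thus lay barely above WT replicate 3. No gene of the list passed the adjusted threshold.

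**Figure D2:**
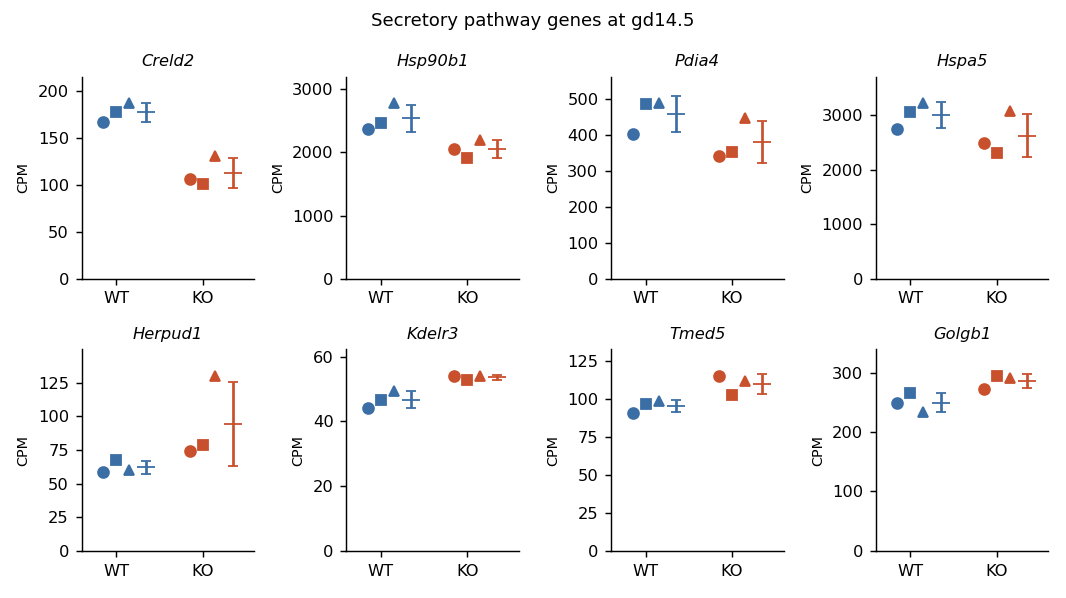
CPM of 8 secretory pathway genes by genotype, with one symbol per library (circle, square and triangle for replicates 1 to 3) and, beside them, the mean and SD of each group (n = 3). *Creld2* and *Hsp90b1* do not overlap between genotypes, KO replicate 3 of *Pdia4* and *Hspa5* lies within the WT range, and *Herpud1* in KO replicate 3 stands above the other 5 libraries.

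Long and short genes differed in the same comparison, and the vesicle genes are long. The median exonic length was 5541 bases for the vesicle list, 1587 bases for the oxidative phosphorylation list, 1754 bases for ribosomal protein genes and 3734 bases for all genes tested. With the genes split by length into 5 bins of equal size, the median log2 fold change ran from -0.05 in the shortest bin to 0.03 in the longest, and the share of genes wholly above WT from 3.66% to 9.38%. Genes with an unadjusted p under 0.05 had a median length of 5502 bases on the higher side and 2708 bases on the lower side. In 3 of the 6 libraries the median of the longest bin minus that of the shortest was above 0, at 0.13 in KO replicate 2, 0.11 in KO replicate 3 and 0.06 in WT replicate 2, and it was between -0.03 and -0.02 in the other 3 libraries. In a fit with the length trend removed the vesicle median was 0.07 and that of oxidative phosphorylation -0.07.

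**Figure D3:**
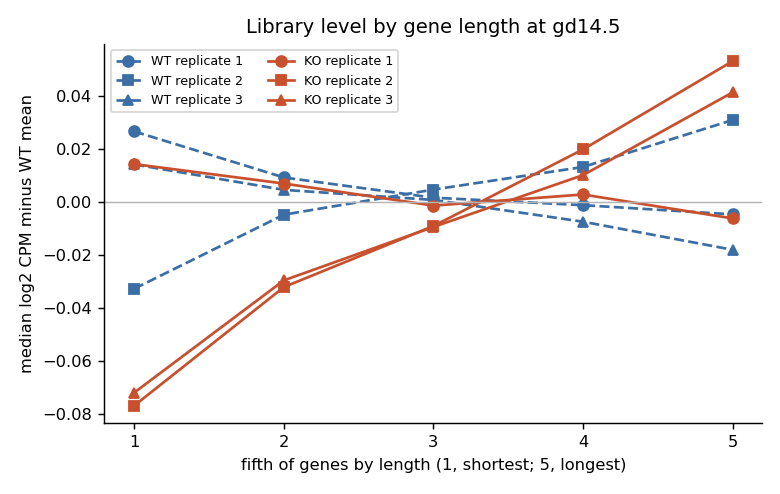
Median of log2 CPM minus the WT mean of each gene, by bin of exonic gene length (5 bins of equal size), with 1 line per library (dashed blue WT, solid red KO). KO replicates 2 and 3 and, less, WT replicate 2 slope upward from the shortest to the longest bin, by 0.13, 0.11 and 0.06.

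Energy genes are described next. Of 79 nuclear oxidative phosphorylation subunits, 73 had a negative log2 fold change, 8 an unadjusted p under 0.05, all lower, and 13 lay wholly below WT (16.46%, against 6.54% of all genes) with none above, at a median of -0.11. Summed over the list the level was 4887, 4503 and 4804 CPM in WT and 4614, 4316 and 4368 CPM in KO, so KO replicate 1 lay above WT replicate 2 and the groups overlapped. *Uqcr11*, of complex III, stood at 17.3, 15.52 and 16.2 CPM in the WT libraries and 14.9, 13.6 and 12.1 CPM in the KO libraries, and *Ndufv2*, of complex I, at 78.98, 68.7 and 80.8 CPM in the WT libraries and 68.9, 64.7 and 63.4 CPM in the KO libraries. *Atp5b*, the catalytic subunit of ATP synthase, stood at 653 ± 21.1 CPM in WT and 615 ± 12.6 CPM in KO. All 12 mitochondrially encoded genes had a negative value, 2 at an unadjusted p under 0.05 and 4 wholly below, with a median of -0.18. *mt-Co1* stood at 14310, 12005 and 14580 CPM in the WT libraries and 12395, 11136 and 11053 CPM in the KO libraries, and its summed list at 25728, 22372 and 26756 CPM in WT and 22693, 20890 and 20688 CPM in KO, where KO replicate 1 again lay above WT replicate 2. Of 84 cytosolic ribosomal protein genes, 63 had a negative value at a median of -0.07 (-0.04 with the length trend removed), 1 had an unadjusted p under 0.05 on the lower side (1.19%, against 3.48% of all genes) and 2 lay wholly below WT (2.38%, against 6.54%). Their summed level was 7256, 6863 and 7471 CPM in WT and 7484, 6465 and 6706 CPM in KO, with KO replicate 1 the highest of the 6 libraries. Of 44 cell cycle and DNA replication genes, 36 had a negative value and none reached an unadjusted p under 0.05 in either direction (median -0.08). Summed, they stood at 1359, 1125 and 1230 CPM in WT and 1274, 1347 and 1014 CPM in KO. The groups overlapped, and KO replicate 3 was the lowest of the 6 libraries. Heat shock and cytosolic chaperones had 2 of 16 at an unadjusted p under 0.05 on the lower side, led by *Hspe1*, the mitochondrial co-chaperone, at 34.1, 30.7 and 34.9 CPM in the WT libraries and 27.7, 25.6 and 27.2 CPM in the KO libraries (adjusted p = 0.517). Of 24 cholesterol synthesis genes, 18 had a positive value and 3 an unadjusted p under 0.05 on the higher side, led by *Tm7sf2* at 1.85, 1.87 and 1.67 CPM in the WT libraries and 2.61, 2.29 and 2.43 CPM in the KO libraries. The summed level of that list overlapped between genotypes, at 1039, 1073 and 1208 CPM in WT and 1169, 1137 and 1214 CPM in KO.

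The NK cell effector genes are the first of the immune lists. Perforin and granzyme B were also measured as protein at this stage, so *Prf1* and *Gzmb* are given whatever their values. *Prf1*, the pore-forming protein of NK cells, stood at 84.8, 63.1 and 101 CPM in the WT libraries and 116, 89.4 and 41.6 CPM in the KO libraries. The KO libraries spread over a wider range than WT and enclosed it (log2 fold change -0.01 ± 0.30, adjusted p = 0.999). *Gzmb* stood at 46.46, 33.7 and 52.96 CPM in the WT libraries and 76.1, 48.49 and 25.1 CPM in the KO libraries (log2 fold change 0.18 ± 0.31). The other granzymes varied in the same way: *Gzmd* stood at 439, 323 and 534 CPM in the WT libraries and 600.01, 436 and 194 CPM in the KO libraries. Summed over the 8 listed effector genes, the level was 1757, 1270 and 2107 CPM in WT and 2447, 1726 and 802 CPM in KO, so KO replicate 3 was the lowest and KO replicate 1 the highest of the 6 libraries. None of the 8 had an unadjusted p under 0.05, and the median was -0.05. A change in the number of NK cells and a change in RNA per cell, in either direction, cannot be told apart in such bulk tissue. Of 22 NK identity genes, 12 were tested, of which 10 were higher and none had an unadjusted p under 0.05. The median of their log2 CPM, centred on each gene, was 0.01, -0.28 and 0.02 in the WT libraries. In the KO libraries it was 0.38, 0.12 and -0.40, so the groups overlapped and KO replicate 3 was the lowest of the 6 libraries. *Il2rb*, a receptor subunit for IL-15 that also lies beside the deleted gene, stood at 81.3, 83.9 and 92.4 CPM in the WT libraries and 102, 84.9 and 107 CPM in the KO libraries.

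The lists of antigen presentation and innate immunity follow. In MHC class I and antigen processing, 2 of 25 had an unadjusted p under 0.05, both lower (3.48% of all genes). Wholly below WT lay 5 of them (20%, against 6.54% of all genes). Summed over the list the level was 2846, 2794 and 2786 CPM in WT and 2805, 2594 and 2331 CPM in KO. The groups thus overlapped, and KO replicate 3 was the lowest library. *H2-Q6* stood at 32.7, 25.9 and 27.9 CPM in the WT libraries and 23.97, 22.04 and 13.1 CPM in the KO libraries and *H2-Q7* at 41.4, 37.9 and 35.4 CPM in the WT libraries and 33.53, 31.502 and 21.98 CPM in the KO libraries, and for both the lowest was KO replicate 3. These are close paralogs, and counting without multiply mapping reads can split them. *B2m*, the light chain of class I, stood at 1065, 905 and 976 CPM in the WT libraries and 968, 861 and 674 CPM in the KO libraries. MHC class II genes were at low levels, with 1 of 8 at an unadjusted p under 0.05. Of 54 interferon-stimulated genes, 31 were higher, 4 had an unadjusted p under 0.05 on the higher side and 1 on the lower, and the median was 0.03. *Ifit2* stood at 30.4, 36.8 and 28.7 CPM in the WT libraries and 49.6, 34.999 and 36.2 CPM in the KO libraries and *Ifih1*, a sensor of double-stranded RNA, at 57.1, 57.3 and 55.9 CPM in the WT libraries and 66.4, 60.8 and 63.99 CPM in the KO libraries. The interferon element was found in 5 of 18 promoter windows of the class I and antigen processing genes (27.8%), with 3 of the 5 before the start site. In the interferon-stimulated genes it was found in 24 of 39 promoter windows (61.5%), against 3.99% of all windows. The cAMP response element was found in none of the 39 (2.03% of all windows). Inflammatory cytokine genes had 1 of 27 and chemokines 1 of 18 at an unadjusted p under 0.05 on the higher side. *Cxcl12*, a stromal chemokine, was the 1 chemokine on the lower side, at 138, 147 and 134 CPM in the WT libraries and 121, 107 and 119.8 CPM in the KO libraries (adjusted p = 0.517).

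Complement and myeloid genes were read in the same way. *C3*, the central complement component, also measured as protein at this stage, stood at 3.10, 4.31 and 8.96 CPM in the WT libraries and 4.71, 5.94 and 5.17 CPM in the KO libraries. The highest value was WT replicate 3, and the log2 fold change was 0.00 ± 0.31. Of 26 complement genes, 1 had an unadjusted p under 0.05 on the higher side, *Clu*, and 1 on the lower. *Clu*, which blocks the terminal complex, stood at 8.65, 13.3 and 12.3 CPM in the WT libraries and 17.4, 14.3 and 23.2 CPM in the KO libraries. Macrophage genes had 1 in each direction of 17. Neutrophil genes had 2 of 9 on the higher side (3.30% of all genes). *Ltf*, a granule protein, stood at 1.22, 0.142 and 2.49 CPM in the WT libraries and 4.03, 3.81 and 2.12 CPM in the KO libraries, with WT replicate 2 near the limit of detection. T cell, B cell and plasma cell, and dendritic cell genes numbered 9, 8 and 8 tested, with 2, 0 and 0 at an unadjusted p under 0.05 in either direction.

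**Figure D4:**
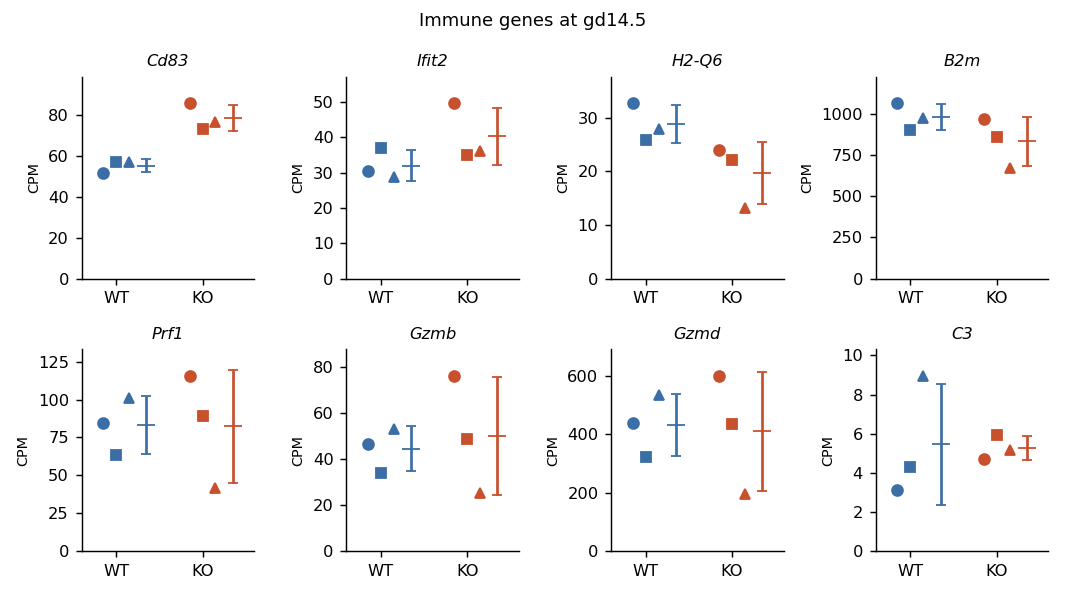
CPM of 8 immune genes by genotype, with one symbol per library (circle, square and triangle for replicates 1 to 3) and the mean and SD of each group (n = 3). *Cd83* and *H2-Q6* do not overlap between genotypes, while for *Prf1*, *Gzmb* and *Gzmd* the 3 KO libraries spread from below to above the WT libraries.

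Trophoblast hormone genes showed mixed values within families. Of 25 prolactin family genes, 1 had an unadjusted p under 0.05 on the higher side and 4 on the lower, at a median of 0.002. *Prl8a6* stood at 630.3, 857 and 705 CPM in the WT libraries and 544, 488 and 564 CPM in the KO libraries (log2 fold change -0.46 ± 0.11, adjusted p = 0.517), and *Prl3c1* at 44.53, 52.3 and 41.9 CPM in the WT libraries and 38.6, 34.499 and 32.7 CPM in the KO libraries. *Prl7a1*, on the higher side, stood at 329.98, 255 and 370.03 CPM in the WT libraries and 448, 337 and 514 CPM in the KO libraries. Among 13 pregnancy-specific glycoproteins, *Psg29* at 994, 1090 and 1216 CPM in the WT libraries and 1449, 1413 and 1728 CPM in the KO libraries and *Psg25* at 1292, 1450 and 1452 CPM in the WT libraries and 1701, 1530 and 1955 CPM in the KO libraries had an unadjusted p under 0.05, both higher, and the median of the list was -0.02. The family is of close paralogs, so counts of single members are uncertain. Of 8 placental cathepsins and inhibitors, 7 were lower and none had an unadjusted p under 0.05. Giant cell genes had 1 of 12 at an unadjusted p under 0.05 (lower), spongiotrophoblast and glycogen cell genes 1 of 21 (lower), and labyrinth genes 3 of 16, all lower, against 3.48% of all genes. The labyrinth median was -0.12, and 3 of its genes lay wholly below WT (18.75%, against 6.54%). *Syna* stood at 96.1, 95.4 and 83.4 CPM in the WT libraries and 67.9, 79.3 and 75.3 CPM in the KO libraries (log2 fold change -0.31 ± 0.08, adjusted p = 0.517), and the labyrinth factor *Ovol2* at 19.98, 18.8 and 17.4 CPM in the WT libraries and 15.1, 16.9 and 14.03 CPM in the KO libraries.

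The widest median belonged to yolk sac endoderm, the epithelium of a fetal membrane that adjoins the placenta. Of 12 yolk sac endoderm genes, 11 were lower and 6 had an unadjusted p under 0.05, all lower (3.48% of all genes). The median was -0.62, and 2 lay wholly below WT (16.7%, against 6.54% of all genes). *Afp*, the fetal serum protein, stood at 36.9, 76.8 and 65.7 CPM in the WT libraries and 38.7, 32.3 and 35.8 CPM in the KO libraries, where WT replicate 1 lay within the KO range. Without WT replicate 1 its log2 fold change was -1.004 with an adjusted p of 0.0178. *Alb* stood at 1.79, 38.3 and 2.96 CPM in the WT libraries and 1.06, 1.68 and 1.68 CPM in the KO libraries, and its log2 fold change of -3.30 became -0.65 without WT replicate 2. The summed level of the list was 308, 471 and 351 CPM in WT and 287, 303 and 358 CPM in KO. Smooth muscle genes had 3 of 11 at an unadjusted p under 0.05, all lower (3.48% of all genes), at a median of -0.21. No gene of the list had groups that did not overlap. *Acta2* stood at 81.9, 65.8 and 82.3 CPM in the WT libraries and 62.53, 71.2 and 63.9 CPM in the KO libraries. Of 17 fetal red cell genes, 3 had an unadjusted p under 0.05, all higher (3.30% of all genes). *Hba-a1*, an alpha globin, stood at 777, 790.4 and 794 CPM in the WT libraries and 999, 883 and 1034 CPM in the KO libraries (adjusted p = 0.625). *Alas2*, the X-linked first enzyme of heme synthesis in red cells, stood at 52.96, 55.3 and 56.2 CPM in the WT libraries and 70.3, 68.9 and 88.05 CPM in the KO libraries. How much the share of these tissues in a sample bears on the other results was not tested. Decidual stroma genes had 2 of 16 at an unadjusted p under 0.05 on the higher side and 1 on the lower, and endothelial genes 1 of 16 (lower), with *Emcn* at 53.7, 44.4 and 47.98 CPM in the WT libraries and 41.01, 39.1 and 37.6 CPM in the KO libraries.

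Among the other lists, collagens had 2 of 38 at an unadjusted p under 0.05 on the higher side and 1 on the lower, matrix proteases and inhibitors 2 of 35 (higher), glycolysis and hypoxia genes none of 31, and the C1q/TNF-related family 1 of 8, which is *C1qtnf6* itself. *C1qtnf1*, the most abundant of the others, stood at 248 ± 25.6 CPM in WT and 273 ± 23.6 CPM in KO. Immediate early genes had 1 of 16 (higher), and nuclear-retained transcripts none of 9. Within 500 kb of *C1qtnf6* on chromosome 15, 23 genes were tested, with log2 fold changes from -0.43 to 0.38. The 1 gene at an unadjusted p under 0.05 was *Csf2rb*, the common beta chain of the GM-CSF receptor, at 9.92, 10.02 and 7.68 CPM in the WT libraries and 11.7, 12.3 and 10.03 CPM in the KO libraries.

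**Figure D5:**
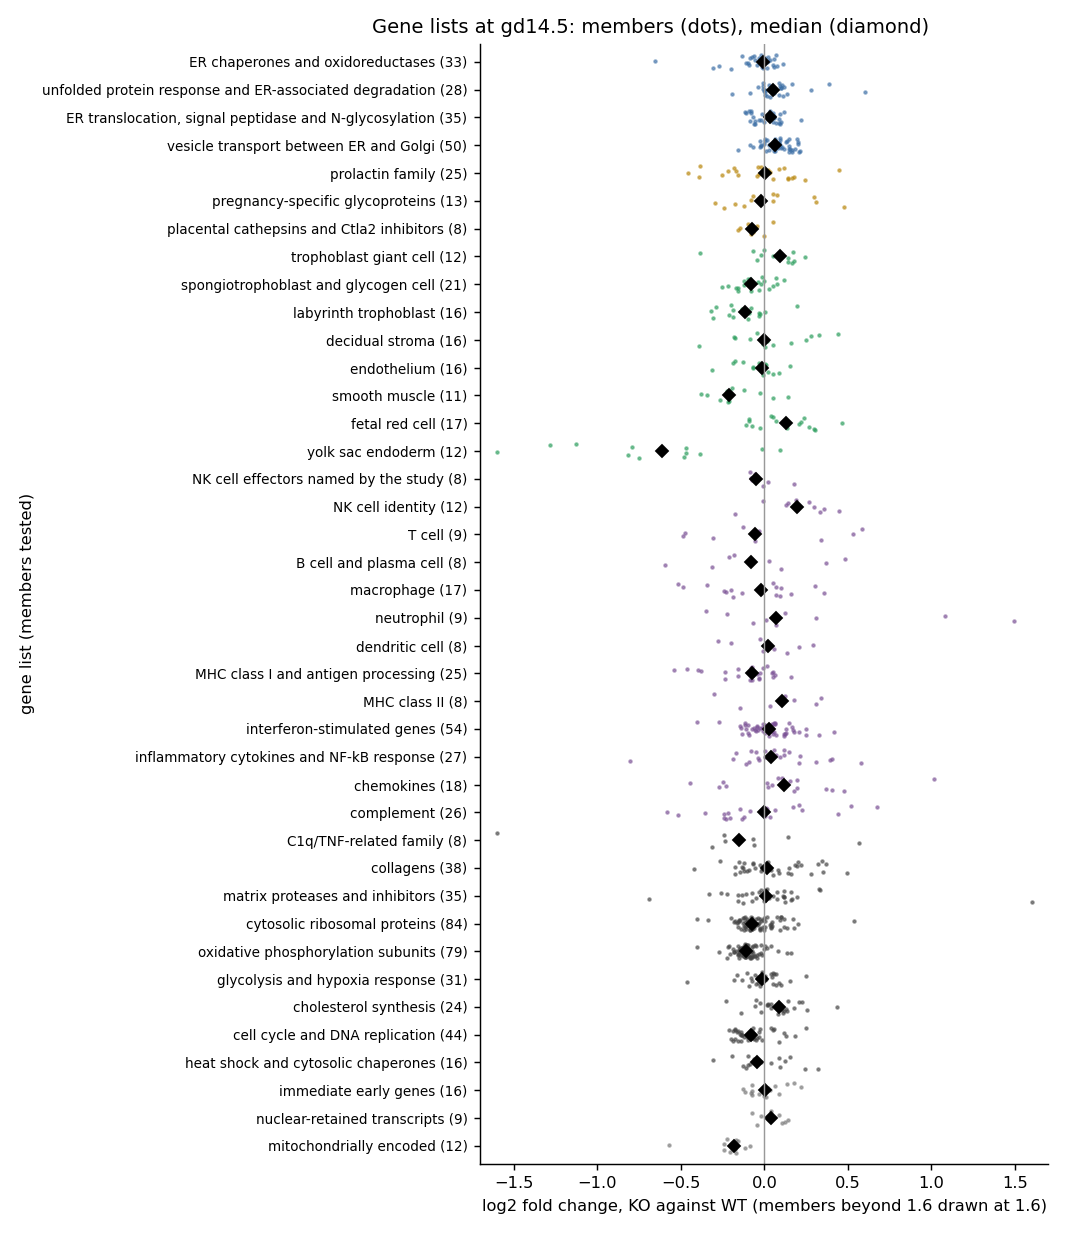
Log2 fold change of KO against WT at gd14.5 for the members of each list (dots, with the number tested in brackets) and their median (black diamond). Yolk sac endoderm has the lowest median, at -0.62, and NK identity the highest, at 0.20. For both lists the medians by library overlapped between genotypes.

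The KO effect at gd14.5 was compared with that at the 3 other stages. In the test of the effect at gd14.5 minus the mean of those stages over all 24 libraries, edgeR's adjusted p was 1 for all of 19299 genes, and 539 genes (2.79%) had an unadjusted p under 0.05, 267 in the higher and 272 in the lower direction. *Creld2* had a difference of -0.84 on the log2 scale, with an adjusted p of 1.00 in edgeR and of 0.0356 in DESeq2, where it was the 1 gene to pass. Its log2 fold change was -0.65 at gd14.5, 0.11 on gd10.5, 0.26 on gd16.5 and 0.20 on gd19.5. *Hsp90b1*, at -0.31 on gd14.5, had 0.12, 0.37 and 0.01 at the other stages in the same order. *Cd83* had 0.61, 0.57 and 0.14, and on gd10.5 a single KO library carried the sign, as KO stood at 3.90, 8.47 and 36.1 CPM and WT at 8.06, 11.78 and 11.84 CPM (each in rising order). On gd16.5 its KO libraries, at 57.5, 60.8 and 75.1 CPM, lay wholly above WT, at 38.2, 45.9 and 45.9 CPM. On gd19.5 its groups overlapped. *Rock2* had 0.02, -0.07 and -0.09. *Mid1* also did not overlap on gd10.5, at 3.17 to 3.88 CPM in WT and 4.94 to 8.01 CPM in KO, while on gd16.5 and gd19.5 its groups overlapped. For the lists, the median of vesicle transport was 0.04, 0.04 and 0.06 in stage order (gd10.5, then gd16.5, then gd19.5), against 0.06 at gd14.5, and that of oxidative phosphorylation 0.02, 0.04 and -0.05, against -0.11. The yolk sac list had 0.90, 2.00 and -0.19 at these stages, against -0.62. Its summed level set single libraries apart within a genotype, at 65.0, 70.6 and 5258 CPM in WT and 1775, 3121 and 5147 CPM in KO on gd10.5 and at 434, 462 and 8971 CPM in WT and 468, 8660 and 25261 CPM in KO on gd16.5 (each in rising order). The NK effector list had -0.11, -1.63 and -0.39, against -0.05. Differences between list medians at different stages were not tested.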

How the data were processed

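RNA from the MFI was sequenced as stranded poly(A) libraries in paired ends, and 6 of the 24 libraries, those of gd14.5, were compared. The authors deposited 1 table of raw counts per gene, whole numbers that are not normalized. It holds 55401 genes, made on GRCm38 with Trim Galore 0.6.4, STAR 2.7.3a and featureCounts of Subread 2.0.0, which by default ignores strand and leaves out multiply mapping reads, so overlapping genes and close paralogs can share or lose reads. The annotation release behind the counts is not given in the sources used here. Gene positions and lengths came from GENCODE M21, in which 55141 IDs were found, 54784 of them at the same position, and promoter windows came from RefSeq (GRCm38.p6).

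Groups came from the genotype and stage in the labels, and replicate numbers from the sample descriptions, since the KO titles number differently. Genes were kept with filterByExpr (minimum count 10, total 15) and tested with edgeR 4.0.16 (TMM, quasi-likelihood F test, Benjamini-Hochberg over all genes tested) in R 4.3.3. DEGs passed an adjusted p of 0.05 with a log2 fold change beyond 1 either way, limits taken from the study, whose tool was DESeq2. CPM stands for counts-per-million of the TMM-scaled library size. Alternatives were DESeq2 1.42.0, limma voom 3.58.1, other scaling and filters, a Y-linked covariate, the replicate block and each library left out. A fit without the gene length trend and one without the libraries holding Y-linked transcripts were chosen after seeing the data. In simulated counts 200 genes, drawn only from those above a minimum mean count, were changed by 1 on the log2 scale. Of these, edgeR recovered 191 with 9 false calls among 17786 genes, DESeq2 190 with 24 among 18024 and voom 190 with 6 among 17786. In the real data, genes at an unadjusted p under 0.05 in edgeR had a median absolute log2 fold change of 0.26 (higher) and 0.27 (lower). Recovery of changes that small was not simulated.

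The 41 gene lists and the rule for naming genes were chosen with earlier results of these data known. The rule named genes with an adjusted p under 0.05, the 10 autosomal genes per direction with the smallest p, a mean of at least 1 CPM and groups that do not overlap (unnamed gene models left out), in each list up to 4 members by p and the 2 most abundant, *Prf1*, *Gzmb* and *C3*, and genes within 500 kb of *C1qtnf6* with an unadjusted p under 0.05. *Canx*, *Derl3*, *Dnajc3* and *Pdia6* are named for the promoter search and *Gcm1*, *Pgr* and *Synb* as markers. Lists are described by counts and medians and were not tested.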

Additional observations from a re-analysis of the deposited data

Results flagged for a closer look

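For 4 of the genes described above, all KO libraries lay on one side of all WT libraries at gd14.5 and on the other side at another stage. *Uvssa* had a log2 fold change of 0.41 at gd14.5 and -0.36 at gd19.5. *Hsp90b1* had -0.31 at gd14.5 and 0.37 at gd16.5. *Prl8a6* had -0.46 at gd14.5, 1.40 at gd10.5 and 0.98 at gd16.5. On gd10.5 its level was low and 1 KO library stood apart, with WT at 10.4, 10.7 and 11.7 CPM and KO at 12.9, 20.9 and 52.8 CPM (each in rising order). *Cxcl12* had -0.27 at gd14.5 and 0.33 at gd19.5. The difference between these pairs of stages was not tested on its own, and in the test of gd14.5 against the mean of the other stages edgeR's adjusted p was 1 for each of the 4 genes.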

How the results depend on the processing

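The number of DEGs, 3 as reported, was 44 with no filter on low counts, 1 in the fit of all 24 libraries, 1 with the replicate block, 1 in DESeq2 on 24 libraries, 5 without the libraries holding Y-linked transcripts, and 2 to 5 on leaving out each library in turn. The cause of these differences was not tested. DESeq2 on the 6 libraries gave 4 DEGs and 22 genes with an adjusted p under 0.05. *Creld2* passed an adjusted p of 0.05 in 7 of 19 settings, *Tmem267* in 6, *Zkscan3* in 4 and *Cd83* in 3. The labels do not say whether replicate numbers pair the libraries. The correlation of deviations was 0.102, -0.003 and 0.103 between same-numbered libraries, and WT replicate 1 correlated best with KO replicate 2 (0.139). Deviations within a group cancel out, so these values depend on one another and cannot show whether libraries shared a run or litter. The block ended the calls of *Mid1* and *Gm15726*.

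Genes higher at an unadjusted p under 0.05 (594) numbered 1052 with no filter, 292 in the fit of all 24 libraries, 310 in DESeq2 on 24 libraries and 410 to 935 on leaving out a library. Genes lower (628) numbered 1060 with no filter, 212 in the fit of all 24 libraries, 360 in DESeq2 on 6 libraries, 233 in DESeq2 on 24 libraries and 329 to 782 on leaving out a library. The test against the other stages gave 1 gene in DESeq2 and 0 in edgeR, also with each gd14.5 library left out. Interferon elements in class I promoters numbered 3 before the start and 5 in the whole window.

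Of 760 list medians under an alternative, 740 stayed within the replicate SD. Leaving out a library gave medians of -0.117 to 0.006 for spongiotrophoblast and glycogen cells, 0.102 to 0.269 for fetal red cells, -0.323 to 0.138 for T cells, -0.02 to 0.168 for neutrophils, -0.001 to 0.12 for dendritic cells, 0.022 to 0.128 for chemokines, -0.121 to -0.002 for complement, -0.144 to -0.063 for the C1q/TNF-related family and -0.044 to 0.099 for immediate early genes. Without the libraries holding Y-linked transcripts the median was 0.195 for T cells, 0.202 for neutrophils and -0.042 for the C1q/TNF-related family, which stood at -0.07 with a minimum of 10 counts in every library and -0.062 in voom.

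Of 1391 values of the 74 genes described, 29 in 9 genes changed sign, and none of the 9 had an unadjusted p under 0.05 as reported. Leaving out a library gave log2 fold changes of -0.082 to 0.08 for *Calr*, -0.005 to 0.059 for *Xbp1*, -0.1 to 0.043 for *Prl3b1*, -0.133 to 0.01 for *Tpbpa*, -0.098 to 0.06 for *Prl8a2*, -0.254 to 0.492 for *Gzmb*, -0.451 to 0.264 for *Gzmd*, -0.328 to 0.309 for *Prf1* and -0.299 to 0.515 for *C3*. Without the libraries holding Y-linked transcripts *Calr* had -0.059, *Gzmd* 0.446 and *Prf1* 0.473. With the length trend removed *Prl3b1* had 0.004, *Prf1* 0.012 and *C3* -0.006. *Calr* had -0.001 in voom, *Prl8a2* -0.002 with the replicate block and -0.002 with the Y-linked covariate, and *C3* -0.006 with no filter, -0.02 in the fit of all 24 libraries and -0.043 in DESeq2 on 6 libraries.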
